A study of Mus musculus with 24 samples.

Results

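Med12 deletion in mouse lymphoid progenitors (LPs) is described here from the 3 libraries labelled sgMed12 and the 3 libraries labelled sgCont in the second experiment of a series, which are 6 of its 24 samples. The libraries were taken by their labels and not by any measured value. The study deleted the RUNX partner Cbfb, the insulator protein CTCF or the Mediator subunit Med12 in LPs and sequenced the 3′ ends of mRNA. The sgCTCF and sgCbfb libraries of the same experiment, 3 of each, entered the fit and are used here for direct tests of where the sgMed12 libraries differed from them.

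Every group came from LP cell lines set up from fetal liver progenitors that lack Ebf1 and carry a Rosa26-Cas9 knock-in. The control cells thus lack Ebf1 and express Cas9 as well. How many lines gave these libraries is not stated. The cells were grown with SCF, Flt3L and IL-7 on mitomycin C-treated OP9 stromal cells, which give no Notch ligand stimulus in this design. Cells received a retrovirus with sgRNAs and a human NGFR marker. The sgCont cells received guides against luciferase, and the sgMed12, sgCTCF and sgCbfb cells received pooled vectors against the named gene. Cells positive for hNGFR and CD45 were sorted 5 days after transduction and taken as bulk RNA. A cell line without Ebf1 models progenitors that cannot enter the B lineage, and a pool of edited cells holds a mixture of alleles. The study calls its replicates biologically independent without saying what set them apart, such as separate transductions, and the p-values measure the spread between these libraries. In bulk RNA, fewer cells of a type and less RNA per cell cannot be told apart.

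Mediator links transcription factors bound at enhancers and promoters to RNA polymerase II. Med12 belongs to a kinase module, together with cyclin C, Cdk8 or Cdk19 and Med13 or Med13l, that joins the core complex reversibly. Within it Med12 activates the kinase, and the module is known both to restrain and to help transcription, depending on the gene. The comparison asks which transcripts differ in LPs, without Notch stimulation, once Med12 is targeted.

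Values are CPM, which state the reads on a gene as a share of all reads on genes in its library, scaled alike for every library. The sgCont libraries held 3791670, 3385937 and 4106599 reads on genes, and the sgMed12 libraries held 3538910, 3441248 and 3522934. A count of 0 therefore allows a level of up to 0.731 to 0.886 CPM in these 6 libraries, counting error only. Fold changes are limma differences of mean log2(CPM + 1), sgMed12 minus sgCont, and p-values are adjusted by the Benjamini-Hochberg method over 13177 genes tested. A gene is said to have passed the test at an adjusted p under 0.05. It is called, and said to have risen or fallen, where in addition the log2 ratio of the group means was beyond 1 in size and the mean was above 10 CPM in either group.

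The sgMed12 libraries did not lie together. On the second principal component of the 12 libraries, which held 19.8% of the variance, sgMed12 replicates 1, 2 and 3 lay at -46.8, -13.3 and -38.3, and the sgCont replicates lay at -10.1, -2.4 and -10.9. Replicates 1 and 3 stood apart from the controls, and replicate 2 lay beside them. The same order was seen in the correlation across genes with the sgCont libraries, where genes are not independent replicates: 0.954 to 0.961 for replicate 1, 0.973 to 0.978 for replicate 2 and 0.962 to 0.969 for replicate 3.

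RNA composition moved with that split. Mitochondrially encoded RNA took 13.66%, 8.44% and 11.18% of CPM in sgMed12 replicates 1, 2 and 3, and 7.5%, 8.03% and 7.94% in the sgCont libraries. Genes of the TEC biotype, unreviewed transcript models that await experimental follow-up, took 0.5%, 0.22% and 0.46%, and 0.21%, 0.15% and 0.2% in sgCont. Replicates 1 and 3 were high in both measures, while replicate 2 lay just above the highest control. The widest 95% Wilson interval of any mitochondrial share was 0.0716 percentage points across, so counting error is small beside the mitochondrial differences. For TEC genes the interval of sgMed12 replicate 2 was 0.21% to 0.22%, next to 0.21% in sgCont replicate 1. That step is near counting error. Ribosomal RNA, which came from the gene CT010467.1, took 11.2%, 10.78% and 11.69% in sgMed12 and 8.22%, 8.94% and 7.87% in sgCont, and here replicate 2 lay with replicates 1 and 3. In the other deletions it took 9.86%, 11.22% and 9.51% (sgCTCF) and 8.84%, 10.34% and 10.3% (sgCbfb), so sgCTCF replicate 2 lay within the sgMed12 range. Protein-coding genes took 75.93%, 81.04% and 77.44% in sgMed12 and 84.43%, 83.03% and 84.43% in sgCont. Each of these 4 measures separated the groups with an exact two-sided permutation p of 0.1 (n = 3 and 3), the smallest p that 3 libraries against 3 allow. The lincRNA share and the number of genes detected did not separate them (p of 0.4 and 0.2, same test). Because of the split between sgMed12 libraries, values with libraries left out are given for many of the genes below. The part of RNA composition in the results was not tested.

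**Figure D1:**
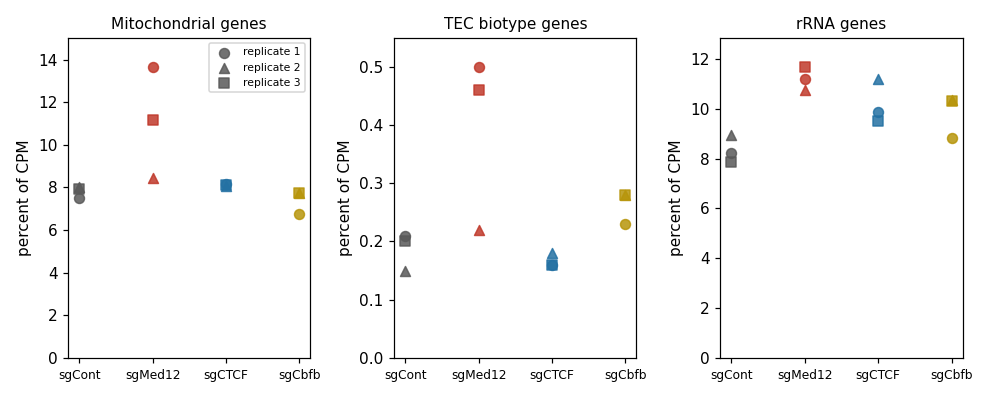
Share of CPM (percent, linear axes from 0) taken by mitochondrially encoded genes, TEC biotype genes and rRNA genes in each of the 12 libraries, with the replicate number as the marker shape. For mitochondrial and TEC genes, sgMed12 replicates 1 and 3 lie above all other libraries, and for rRNA all 3 sgMed12 libraries lie above the sgCont libraries. For rRNA sgCTCF replicate 2 lies within the sgMed12 range.

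The cells carried the LP markers, and some markers of other lineages had reads as well. All 6 LP markers, Kit, Flt3, Il7r, Cd34, Ptprc and Spi1, were detected in every library and none was called; their summed level was 1333, 1507 and 1335 CPM in sgCont and 1096, 1343 and 1308 CPM in sgMed12. The pro-B marker Cd79a, the T-cell marker Cd3e, the NK-cell markers Ncr1 and Tbx21 and the erythroid and megakaryocyte markers Hbb-bs and Pf4 were at 0 in all 6 libraries. Other markers of these lineages had reads: Pax5 lay at 6.59, 9.15 and 9.98 CPM in sgCont and at 4.52, 8.72 and 5.68 CPM in sgMed12, and Cd3g, Tcf7, Il2ra, Gzma and Gata1 were under 5 CPM in all 6. The beta-globin gene Hbb-bt lay at 127, 134 and 143 CPM in sgCont and at 94.4, 134 and 144 CPM in sgMed12. Ccr9, a chemokine receptor of plasmacytoid dendritic cells and lymphoid progenitors, lay at 627, 536 and 440 CPM in sgCont and at 922, 536 and 751 CPM in sgMed12. Siglech, the other dendritic cell marker, was under 5 CPM in all 6. The myeloid marker Itgam lay at 10.5, 8.56 and 6.57 CPM in sgCont and at 11.6, 16.9 and 11.4 CPM in sgMed12. Mpo lay at 5.8, 5.91 and 4.14 CPM in sgCont and at 5.37, 6.68 and 5.96 CPM in sgMed12. The myeloid markers Csf1r and Lyz2 were under 5 CPM in all 6, and no myeloid marker was called. Reads on Ebf1 were present at 308, 287 and 233 CPM in sgCont and 339, 197 and 286 CPM in sgMed12, so 3′ reads of the disrupted gene remained in these Ebf1-deficient cells. Markers of OP9 stroma (Col1a1, Col1a2, Sparc and Cxcl12) summed to 17.9, 0 and 0 CPM in sgCont and 28.8, 4.07 and 10.5 CPM in sgMed12, most of it Col1a2, and none of the 4 was called. Stromal RNA was thus uneven between libraries and highest in sgMed12 replicate 1, and its part in the results was not tested. Of the LP markers, Flt3 (log2 fold change -0.65, SE 0.10, adjusted p = 0.000396, limma) and Cd34 (0.50, SE 0.11, adjusted p = 0.0108) passed the test below the fold threshold. Flt3 lay at 273, 289 and 266 CPM in sgCont and at 164, 197 and 169 CPM in sgMed12. Cd34 lay at 227, 247 and 243 CPM in sgCont and at 311, 334 and 375 CPM in sgMed12. The progenitor cytokine receptor was lower and the stem and progenitor surface protein higher in all 3 sgMed12 libraries, replicate 2 included.

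Med12 mRNA itself (ENSMUSG00000079487, GRCm38 chrX:101274030-101297465, plus strand) was not lower in the sgMed12 libraries. It was measured at 6.59, 4.43 and 4.38 CPM in sgCont and at 9.61, 3.2 and 8.23 CPM in sgMed12. Replicates 1 and 3 lay above every control and replicate 2 below every control, so the groups overlap. The log2 fold change was 0.30 (SE 0.35, adjusted p = 0.663, limma). It was 0.04 without sgMed12 replicate 1, 0.14 without sgMed12 replicate 3, 0.71 without sgMed12 replicate 2, 0.46 without sgCont replicate 1, 0.22 without sgCont replicate 2, 0.21 without sgCont replicate 3 and -0.53 with sgMed12 replicates 1 and 3 both left out, none of them past the test. Reads at the 3′ end do not show whether the coding sequence was edited or how much protein was left, so this value neither shows nor questions the deletion. The study probed Med12 protein by immunoblot in LPs given sgRNAs against Med12, which is not among the data used here.

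None of the 7 kinase module genes, Med12 among them, passed the test, with a median log2 fold change of 0.20 beside -0.02 for all genes tested. Cdk8 lay at 29.8, 33.1 and 35.6 CPM in sgCont and 45.8, 38.1 and 42 CPM in sgMed12 (log2 fold change 0.34, SE 0.16, adjusted p = 0.194). Cyclin C (Ccnc) lay at 14, 8.56 and 16.8 CPM in sgCont and 6.22, 11.9 and 8.23 CPM in sgMed12 (-0.52, SE 0.26, adjusted p = 0.235). The kinase's levels did not overlap between groups, as held for 1230 of the 6304 genes tested with a log2 fold change above 0. The cyclin's levels overlapped. Both genes lie outside the rule for named genes given below. None of 26 core Mediator genes passed either, with a median of -0.01. Of all genes tested 4.7% passed as lower and 2.53% as higher. The other targeted genes of the experiment did not pass: Cbfb had a log2 fold change of -0.43 (adjusted p = 0.112), which passed the test below the fold threshold without sgMed12 replicate 2 (-0.64, adjusted p = 0.00158) and was -0.18 without sgMed12 replicate 1, and Ctcf one of -0.10 (adjusted p = 0.593).

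Across the transcriptome 48 genes (0.364% of 13177) fell and 88 genes (0.668%) rose in sgMed12 LPs. At the adjusted p alone 619 genes (4.7%) were lower and 333 (2.53%) higher. By log2 fold change the largest falls were those of Ankrd37, Bnip3, Slc16a3, Lgals3, Gpx4 and Dntt, the first 3 of which belong to glycolysis and the hypoxia response. The largest rise among protein-coding genes was that of the Notch target Hes1, and by number the rises were 36 protein-coding genes, 36 TEC genes and 16 of other biotypes. Tested directly against the other deletions, with no control library in the contrast, 304 genes (2.31%) were lower and 225 (1.71%) higher in sgMed12 than in sgCTCF, and 358 (2.72%) were lower and 232 (1.76%) higher in sgMed12 than in sgCbfb.

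**Figure D2:**
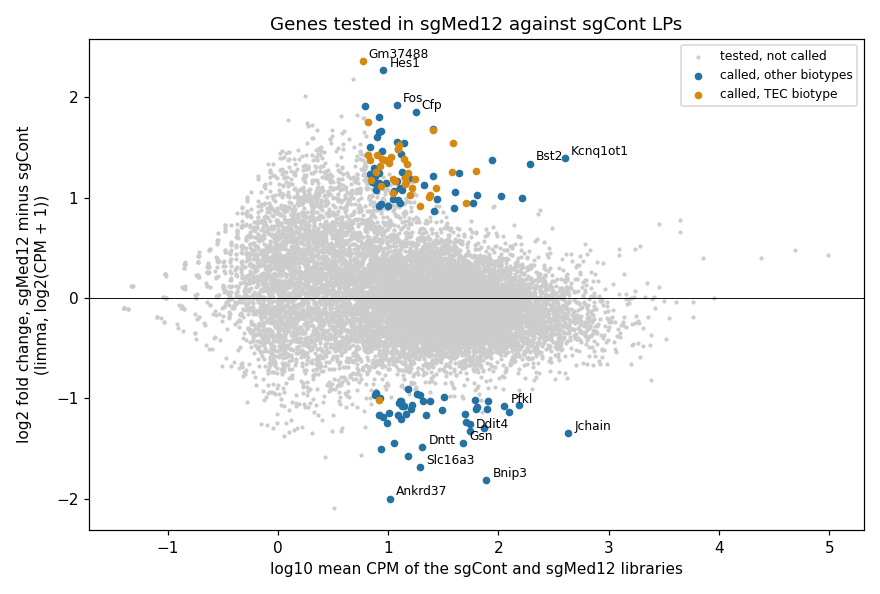
Log2 fold change of each gene (sgMed12 minus sgCont, limma on log2(CPM + 1)) against log10 of its mean CPM over the sgCont and sgMed12 libraries. Called genes of the TEC biotype are orange and called genes of other biotypes blue; 36 TEC genes were called higher and 1 was called lower.

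The falls and the rises rested on the libraries differently. The 48 genes that fell had median log2 ratios to the sgCont mean of -1.30, -1.08 and -1.14 in sgMed12 replicates 1, 2 and 3. The 88 genes that rose had medians of 1.63, 0.61 and 1.36. Of the 3 sgMed12 libraries, replicate 2 lay nearest to the controls for 25 of the falls (52.1%) and 67 of the rises (76.1%), beside 54.3% of all genes tested with a log2 fold change below 0 and 51.5% of those above 0. It lay beyond every control for 47 falls (97.9%) and 67 rises (76.1%), beside 44.4% and 42.4% of all genes tested, a measure that calling favours. Among called genes replicate 2 thus changed nearly as much as the other libraries for the falls, and less for the rises. Over all genes tested with a log2 fold change below 0, the medians were -0.35, -0.14 and -0.29 in replicates 1, 2 and 3. For those above 0 they were 0.35, 0.15 and 0.29, so replicate 2 changed less in both directions there.

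For called genes, left-out libraries gave the same contrast between falls and rises. Without sgMed12 replicate 1 there were 24 rises and 37 falls, and without sgMed12 replicate 3 there were 22 and 32. Without sgMed12 replicate 2 there were 243 and 115. Without sgCont replicates 1, 2 and 3 in turn there were 65, 35 and 52 rises and 38, 31 and 46 falls. With both sgMed12 replicates 1 and 3 left out, a setting chosen after seeing the data in which replicate 2 stands alone and is assumed to vary like the other groups, there were 10 rises, 7 of them among the 88, and 40 falls, 22 of them among the 48. Of the genes called, 17 of 48 falls and 7 of 88 rises kept their call with each of the 6 libraries left out in turn. The split of called genes was 64.7% higher. Once CT010467.1 and mitochondrial genes were dropped from the library totals, also chosen after seeing the data, it was 82.3% higher, with 158 rises and 34 falls and a median log2 fold change of all genes of 0.08. It was 72.9% with median-of-ratios scaling.

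**Figure D3:**
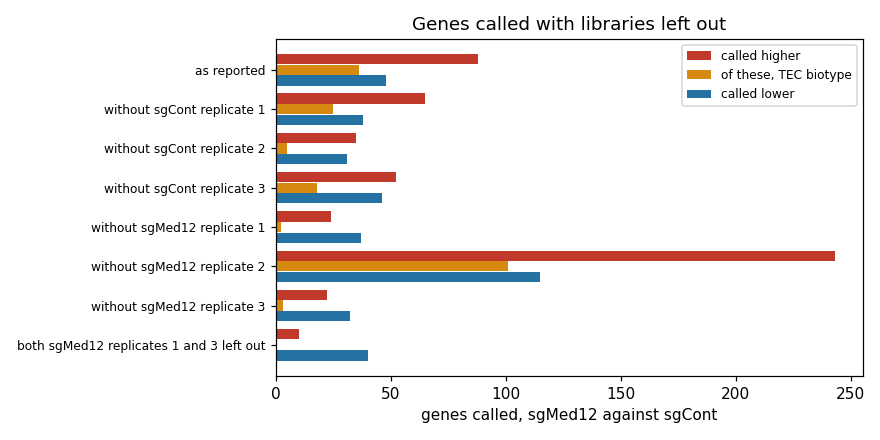
Number of genes called (linear axis from 0) in sgMed12 against sgCont with all libraries, with each of the 6 libraries left out in turn, and with sgMed12 replicates 1 and 3 both left out. Rises range from 10 to 243 and falls from 31 to 115 over these settings, and rises of TEC genes range from 0 to 101.

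Among the lists of genes with a shared function, glycolysis and the hypoxia response held the most falls. Of 25 listed genes, all tested, 7 fell and none rose (0 higher also by edgeR and DESeq2), beside 0.364% of all genes tested called lower. By the adjusted p alone 15 passed, all of them lower, beside 4.7% of all genes. The list's median log2 fold change was -0.60, beside -0.02 for all genes, and 24 of the 25 were below 0. Their summed level was 4679, 5116 and 4621 CPM in sgCont and 3795, 2852 and 3584 CPM in sgMed12, lowest in replicate 2. The median was -0.73 with replicates 1 and 3 left out, where 8 genes fell, so this group did not rest on the libraries that stood apart. It stayed between -0.50 and -0.61 under every scaling and pseudocount tried, with 5 genes called when mitochondrial genes and CT010467.1 left the library totals.

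Bnip3 and Ankrd37 fell most among the genes of the list with their levels above 10 CPM in every control. Bnip3 (ENSMUSG00000078566), a mitophagy receptor induced by hypoxia, was at 124, 140 and 100 CPM in sgCont and at 42.7, 22.1 and 38.9 CPM in sgMed12 (log2 fold change -1.82, SE 0.23, adjusted p = 5.96e-05, limma). Ankrd37 (ENSMUSG00000050914), a target of hypoxia-inducible factor (HIF), was at 15.3, 18 and 17.3 CPM in sgCont and at 1.7, 4.36 and 5.11 CPM in sgMed12 (-2.0, SE 0.30, adjusted p = 0.000344). Both were lower in all 3 sgMed12 libraries by more than the spread of the controls. Exons of Ankrd37 overlap those of Lrp2bp on the opposite strand over 349 bases, and exons of Bnip3 overlap those of Gm45507 over 504 bases, and how the study's counts treated strand is not given. The same holds for Txnip (606 bases with Gm15441) and Ndrg1 (419 bases with Gm17035), and for other genes named below, among them Slc44a1, Tmem216, H1f0, Srcap, Kcnq1ot1, Lncpint and Gm38055. Slc16a3, which exports lactate, was at 27.2, 38.7 and 23.4 CPM in sgCont and at 8.76, 4.36 and 14.5 CPM in sgMed12 (-1.69, SE 0.31, adjusted p = 0.00223). These 3 genes kept their calls with each library left out, and without replicates 1 and 3 their log2 fold changes were -2.39, -1.73 and -2.49 for Bnip3, Ankrd37 and Slc16a3.

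Pfkl and Pgk1, enzymes of glucose breakdown, fell with them. Pfkl, the liver-type phosphofructokinase, was at 143, 164 and 155 CPM in sgCont and at 71.2, 73.2 and 71.8 CPM in sgMed12 (log2 fold change -1.08, SE 0.15, adjusted p = 0.000142). It kept its call with each library left out and was just short of the fold threshold with CT010467.1 and mitochondrial genes dropped from the totals (-0.98, adjusted p = 0.000511). Pgk1, phosphoglycerate kinase, was at 22.2, 23.3 and 21.2 CPM in sgCont and at 8.48, 9.88 and 11.1 CPM in sgMed12 (-1.11, SE 0.29, adjusted p = 0.023). Its groups were well apart, yet its adjusted p was 0.0667, 0.0819 and 0.0609 without sgCont replicates 1, 2 and 3, and 0.0792 and 0.0659 without sgMed12 replicates 1 and 3, with log2 fold changes from -1.02 to -1.19. The other calls on the list, named after their values were seen, were Pdk1, which restrains entry of pyruvate into the mitochondrion, and the hypoxia-responsive gene Ndrg1. Pdk1 lay at 69.1, 95.4 and 80.8 CPM in sgCont and at 46.1, 35.5 and 38 CPM in sgMed12 (-1.02, adjusted p = 0.000252), and missed the fold threshold without sgCont replicate 2 (-0.90) or sgMed12 replicate 2 (-0.94). Ndrg1 lay at 22.7, 21.3 and 12.4 CPM in sgCont and at 9.89, 6.68 and 7.95 CPM in sgMed12 (-1.08, SE 0.22, adjusted p = 0.00534), and kept its call with each library left out. Of the abundant members, also named after their values were seen, Ldha (-0.49, adjusted p = 0.0118), Aldoa (-0.66, adjusted p = 0.00323) and Gapdh (-0.60, adjusted p = 0.0116) passed the test below the fold threshold. Vegfa, a HIF target that encodes a secreted factor and was named in the same way, was at 113, 108 and 100 CPM in sgCont and at 150, 76.7 and 109 CPM in sgMed12 (0.01, adjusted p = 0.972), so not every hypoxia gene was lower.

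The promoters of these genes are shown because the genes moved together and HIF is known to bind a short core motif. RefSeq windows of 300 bases around the gene start on GRCm38.p6 were present for 6 of the 7 genes that fell. The letters ACGTG, searched on both strands and chosen after seeing the values, were in the windows of 4 genes, or 4 of their 7 windows (57.1%). These letters were held by 19.6% of all 32817 RefSeq windows, by 25.8% of the windows of genes tested, by 30.4% of those of genes that fell and by 27.7% of those of genes that rose. The letters also lie inside the E-box CACGTG, as in Bnip3, where a match is counted on each strand. The windows below run 5′ to 3′ on the gene's strand, with matches in capitals: Bnip3 at chr7:138909457-138909756 (minus strand), Ankrd37 at chr8:45999801-46000100 (minus strand), Slc16a3 at chr11:120948817-120949116 (plus strand) and Pgk1 at chrX:106186850-106187149 (plus strand).
Bnip3: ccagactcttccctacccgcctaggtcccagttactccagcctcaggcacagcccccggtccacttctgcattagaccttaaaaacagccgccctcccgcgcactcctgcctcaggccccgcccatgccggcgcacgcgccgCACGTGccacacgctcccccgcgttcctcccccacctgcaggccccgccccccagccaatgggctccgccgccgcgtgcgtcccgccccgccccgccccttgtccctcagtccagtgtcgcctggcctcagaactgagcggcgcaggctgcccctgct
Ankrd37: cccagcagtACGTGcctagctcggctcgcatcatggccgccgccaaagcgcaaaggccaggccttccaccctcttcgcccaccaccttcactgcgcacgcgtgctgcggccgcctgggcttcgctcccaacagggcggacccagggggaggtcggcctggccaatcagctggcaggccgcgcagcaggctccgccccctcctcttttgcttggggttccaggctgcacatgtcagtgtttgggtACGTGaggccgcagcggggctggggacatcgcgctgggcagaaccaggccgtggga
Slc16a3: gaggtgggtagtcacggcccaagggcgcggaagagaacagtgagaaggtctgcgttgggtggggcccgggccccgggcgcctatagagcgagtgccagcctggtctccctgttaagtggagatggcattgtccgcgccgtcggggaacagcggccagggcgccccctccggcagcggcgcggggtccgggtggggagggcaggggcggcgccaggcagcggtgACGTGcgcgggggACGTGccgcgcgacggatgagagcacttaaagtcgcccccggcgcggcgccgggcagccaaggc
Pgk1: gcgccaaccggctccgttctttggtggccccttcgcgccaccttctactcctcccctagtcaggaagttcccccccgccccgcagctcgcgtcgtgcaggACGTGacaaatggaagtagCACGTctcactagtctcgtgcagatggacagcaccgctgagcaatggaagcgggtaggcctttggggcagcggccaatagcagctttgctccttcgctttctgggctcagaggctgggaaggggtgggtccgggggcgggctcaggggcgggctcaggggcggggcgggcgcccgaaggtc
Each of the 4 windows held 2 matches. Pfkl and Pdk1 had windows without these letters and Ndrg1 had no entry. A match describes the sequence and shows no binding. The genes came from a list chosen for glycolysis and the hypoxia response, and the listed genes that did not fall were not compared. The share of windows with these letters is therefore no result about Med12 deletion.

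**Figure D4:**
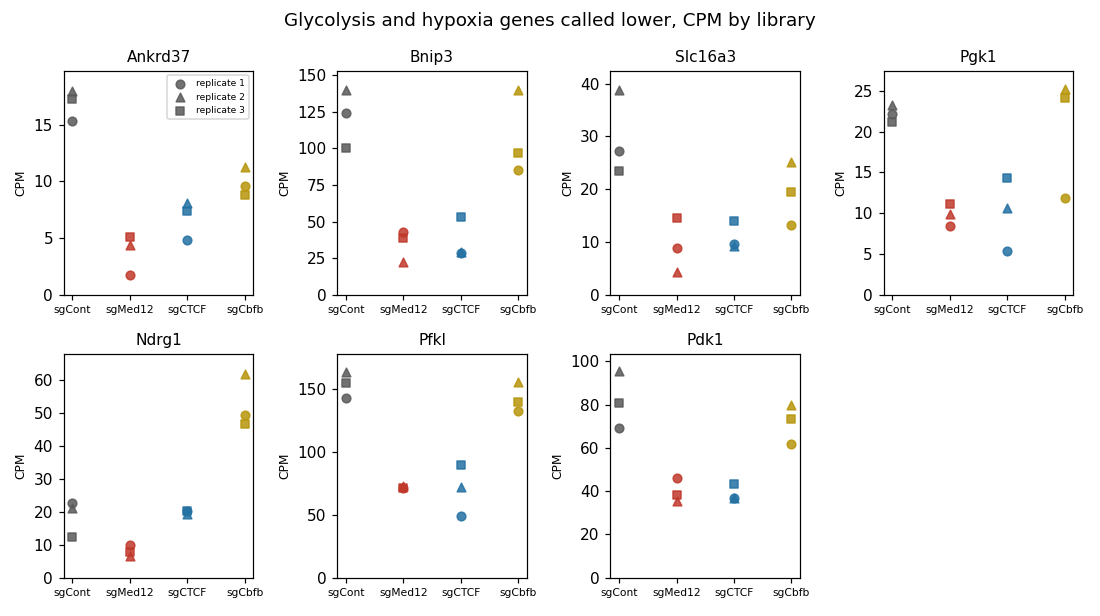
CPM (linear axes from 0) of the 7 glycolysis and hypoxia genes that fell, in each library of sgCont, sgMed12, sgCTCF and sgCbfb, with the replicate number as the marker shape. In each panel all 3 sgMed12 libraries lie below all 3 sgCont libraries.

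Against the other deletions, the group was low in sgCTCF as well. The list's median log2 fold change against sgCont was -0.80 in sgCTCF, with 8 genes lower and 1 higher, and -0.11 in sgCbfb, with none lower and 1 higher. Over all 13177 genes tested 82 were called lower and 238 higher in sgCTCF, and 218 lower and 352 higher in sgCbfb. These comparisons share the sgCont libraries with the one for sgMed12. Tested directly, sgMed12 minus sgCTCF had a list median of 0.06 with 1 gene called lower (2.31% of all genes tested were), Ndrg1 (log2 difference -1.21, adjusted p = 0.000334, limma). By contrast, sgMed12 minus sgCbfb had a median of -0.58 with 6 genes called lower, beside 2.72% of all genes tested, and none higher. Ndrg1 was measured at 20.4, 19.5 and 20.3 CPM in sgCTCF and at 49.5, 61.9 and 46.6 CPM in sgCbfb, so sgMed12 held the lowest level of the 4 groups. Fam162a, a further hypoxia-responsive gene outside the list and named after its values were seen, fell from 107, 120 and 96.2 CPM in sgCont to 43.2, 53.5 and 51.1 CPM in sgMed12 (-1.11, adjusted p = 2.98e-05).

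Ddit4, Txnip, Aldh1b1 and Gpx4 fell too. Ddit4, which encodes the mTORC1 inhibitor REDD1 and is induced by hypoxia and other stress, was at 69.4, 87.7 and 81.1 CPM in sgCont and at 26.3, 36.3 and 30.7 CPM in sgMed12 (log2 fold change -1.33, SE 0.14, adjusted p = 1.7e-05). Its levels in sgCTCF (87.5, 85.2 and 86.4 CPM) and sgCbfb (79.6, 108 and 89.4 CPM) overlapped those of the controls, and the direct differences were -1.46 against sgCTCF (adjusted p = 8.77e-08) and -1.54 against sgCbfb (adjusted p = 1.17e-08). Ddit4 was low in sgMed12 alone among the 4 groups. Txnip, which binds thioredoxin and limits glucose uptake, was at 206, 278 and 146 CPM in sgCont and at 89.9, 104 and 94.2 CPM in sgMed12 (-1.07, SE 0.17, adjusted p = 0.000744), and missed the fold threshold without sgCont replicate 2 (-0.85). It was also lower than in sgCTCF (-1.35, adjusted p = 5.37e-06) and sgCbfb (-1.80, adjusted p = 2.25e-08). Aldh1b1, a mitochondrial aldehyde dehydrogenase, fell from 72, 78.6 and 63.3 CPM to 24.3, 34.3 and 30.9 CPM (-1.24, SE 0.17, adjusted p = 0.000149). Gpx4, the lipid peroxide-reducing peroxidase, fell from 12.1, 15.4 and 11.7 CPM to 5.09, 5.52 and 1.99 CPM (-1.51, adjusted p = 0.00852), a call that was lost without sgMed12 replicate 3 (-1.15, adjusted p = 0.0735) and with replicates 1 and 3 both left out (-1.10, adjusted p = 0.279). Of 26 amino acid response genes Ddit4 alone was called, beside 0.364% of all genes tested called lower. By the adjusted p 5 passed, all lower, beside 4.7% of all genes, with a median of -0.37.

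Single lymphoid genes fell. Of 18 B-lineage and lymphoid priming genes tested, 2 fell, Dntt and Ly6d, beside 0.364% of all genes tested, none rose and the median was -0.06. Dntt, the template-independent DNA polymerase TdT of early lymphoid cells, was at 27.2, 39.3 and 25.3 CPM in sgCont and at 10.7, 9.01 and 10.5 CPM in sgMed12 (log2 fold change -1.49, SE 0.17, adjusted p = 2.98e-05), low in all 3 libraries. Ly6d, a surface marker of lymphoid progenitors primed for the B lineage, was at 115, 137 and 77.7 CPM in sgCont and at 46.3, 61 and 49.7 CPM in sgMed12 (-1.03, SE 0.27, adjusted p = 0.0233). Its call was lost without sgCont replicate 1 (adjusted p = 0.0853), sgCont replicate 2 (0.122), sgMed12 replicate 1 (0.0773) or sgMed12 replicate 3 (0.0989), with log2 fold changes from -0.85 to -0.99. The call was lost too with a pseudocount of 0.1, without moderation, with protein-coding genes only and once CT010467.1 and mitochondrial genes left the totals. Irf4, a lymphoid transcription factor named after its values were seen, passed the test at a level too low to be called, 6.07, 4.13 and 3.41 CPM in sgCont and 1.13, 0.29 and 1.14 CPM in sgMed12 (-1.59, adjusted p = 0.00899).

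Jchain and Pim2 fell as well. Jchain, the joining chain of polymeric immunoglobulins, which LPs transcribe, was at 613, 665 and 570 CPM in sgCont and at 254, 191 and 284 CPM in sgMed12 (log2 fold change -1.35, SE 0.17, adjusted p = 7.22e-05). Pim2, a survival kinase induced by cytokines, was at 84.7, 86.5 and 65.7 CPM in sgCont and at 35.3, 27.3 and 34.1 CPM in sgMed12 (-1.26, SE 0.18, adjusted p = 0.000149). Both were low in all 3 sgMed12 libraries and kept their calls with each library left out. The other deletions bracketed these levels. Jchain was at 1238, 1283 and 1268 CPM in sgCTCF and at 4.47, 9.38 and 9.82 CPM in sgCbfb, with direct differences of -2.39 (adjusted p = 6.5e-10) and 4.82 (adjusted p = 3.12e-16). Pim2 differed by -1.01 from sgCTCF (adjusted p = 0.000258) and by 2.22 from sgCbfb (adjusted p = 8.27e-10), so the sgMed12 level lay below the former and above the latter for both genes. Dntt differed in another order, below sgCTCF by -1.10 (adjusted p = 7.21e-05) and below sgCbfb by -4.65 (adjusted p = 4.03e-16).

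Of 34 cytokine receptor and JAK-STAT genes, Pim2 and Il2rb fell, beside 0.364% of all genes tested, none rose, and 7 passed the test in the lower and 1 in the higher direction, beside 4.7% and 2.53% of all genes, with a median of -0.16. Il2rb, a receptor chain for IL-2 and IL-15, was at 30.1, 55.8 and 42.1 CPM in sgCont and at 16.4, 19.2 and 26.7 CPM in sgMed12 (log2 fold change -0.99, SE 0.25, adjusted p = 0.02). It is called because the ratio of its means passed the fold threshold, and the call was lost without sgCont replicate 2 (-0.78) or 3 (-0.98) and without sgMed12 replicate 1 (-0.84) or 2 (-0.95). It was also the only call among 14 NK, ILC and cytotoxic genes, whose median was 0.16 with 2 genes passing the test, both lower. With CT010467.1 and mitochondrial genes dropped from the totals the cytokine list held 1 rise and 1 fall.

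Further falls were those of Lgals3, Gsn, Dlk1, H1f0, Tubb2b, Tmem216 and Slc44a1. Lgals3 (galectin-3) was at 15.6, 34.3 and 21.2 CPM in sgCont and at 7.35, 6.39 and 6.81 CPM in sgMed12 (log2 fold change -1.58, adjusted p = 0.00286), and the actin-severing protein Gsn at 70.9, 85.1 and 57.5 CPM against 25.1, 24.1 and 26.1 CPM (-1.45, adjusted p = 0.000206). Dlk1, a transmembrane protein of the Notch ligand family, was at 16.6, 17.4 and 16.6 CPM against 5.37, 5.81 and 5.39 CPM (-1.45, SE 0.19, adjusted p = 7.87e-05). The linker histone H1f0 was at 92, 132 and 90.3 CPM against 45.5, 27.9 and 54.8 CPM (-1.30, adjusted p = 0.000149). These 4 genes kept their calls with each library left out and also with sgMed12 replicates 1 and 3 both left out. Tubb2b, a tubulin, fell from 194, 142 and 180 CPM to 74.9, 105 and 57.6 CPM (-1.14, SE 0.16, adjusted p = 0.000149) and missed the fold threshold without sgMed12 replicate 3 (-0.94). Tmem216 (-1.25, adjusted p 0.0508 to 0.0773 without sgCont replicates 1, 2 or 3 or sgMed12 replicate 1, and 0.136 without sgMed12 replicate 3) and the choline transporter Slc44a1 (-1.19, adjusted p 0.0944, 0.104 and 0.117 without sgCont replicates 1 and 2 and sgMed12 replicate 3) were called less firmly. With replicates 1 and 3 both left out Tmem216 was at -0.35 (adjusted p = 0.795) and Slc44a1 at -0.85 (0.422). Tubb2b was at -0.69 there (0.0192) and missed the fold threshold.

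Among the genes that rose, Hes1 changed most of the protein-coding ones. Hes1, a transcriptional repressor and direct Notch target (ENSMUSG00000022528), was at 1.85, 3.25 and 1.95 CPM in sgCont and at 23.2, 12.8 and 11.1 CPM in sgMed12 (log2 fold change 2.27, SE 0.33, adjusted p = 0.000206, limma). All 3 sgMed12 libraries lay far above the controls, and the call held with each library left out and with replicates 1 and 3 both left out (2.07, adjusted p = 0.0138). In sgCTCF it was at 22, 12 and 11.6 CPM, and the direct difference was 0.03 (adjusted p = 0.954). In sgCbfb it was at 5.96, 9.38 and 4.53 CPM, and the direct difference of 1.11 was called (adjusted p = 0.019). The sgMed12 level of Hes1 was thus above that of sgCbfb, and a difference from sgCTCF was not detected.

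Of 30 T-signature genes tested, Hes1 and Tubb3 rose and none fell, beside 0.668% of all genes tested called higher, and 4 passed the test as higher and 2 as lower, beside 2.53% and 4.7% of all genes. The list's median was 0.17, with 21 of 30 above 0. Its summed level was 951, 928 and 850 CPM in sgCont and 997, 1023 and 1082 CPM in sgMed12, a difference that was not tested. Tubb3, a beta-tubulin isotype best known from neurons, was at 8.97, 6.2 and 3.41 CPM in sgCont and at 21.2, 19.8 and 13.9 CPM in sgMed12 (log2 fold change 1.48, SE 0.33, adjusted p = 0.0108), a call that was lost without sgCont replicate 3 (1.17, adjusted p = 0.0642). Thy1 passed the test below the fold threshold, at 186, 150 and 203 CPM in sgCont and 272, 243 and 292 CPM in sgMed12 (0.59, SE 0.13, adjusted p = 0.00975), as did the T-cell receptor constant gene Trgc4, named after its values were seen (0.92, adjusted p = 0.00103). Notch3 was at 1.32, 0.295 and 1.7 CPM in sgCont and 3.39, 1.45 and 1.42 CPM in sgMed12 (0.56, adjusted p = 0.488), and the early T genes Tcf7 (0.11, adjusted p = 0.898) and Il2ra (0.42, adjusted p = 0.569) did not pass. These 3 genes were under 5 CPM in all 6 libraries. At higher levels, the T-lineage regulator Gata3 (0.37, adjusted p = 0.262) and the T-cell receptor kinases Lck (0.03, adjusted p = 0.92) and Zap70 (0.05, adjusted p = 0.944) did not pass either, and nor did the B-lymphoid and progenitor factor Bcl11a (-0.34, adjusted p = 0.192).

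Genes that respond to Notch stimulation were read from the first experiment, which shares no library with the second. Of 201 tested genes that were called higher in Phase 1 control cells than in LP control cells there, 5 rose (Hes1, Tubb3, Ifi203, Pld4 and Gm45399) and 2 fell (Ly6d and Marcks) in sgMed12 LPs, beside 0.668% and 0.364% of all genes tested, with a median of 0.16. Of 231 that were called lower in Phase 1, none rose and 9 fell, beside the same shares, with a median of -0.23. By the adjusted p alone 48 of them passed as lower and 13 as higher, beside 4.7% and 2.53% of all genes. Of the 201 genes on the first list 7 passed as lower and 14 as higher by the same measure. The 9 falls on the second list were Jchain, Dntt, Pim2, Dlk1, Txnip, Sdc1, Pdcd2l, Bmf and Bcl3. Of the 9 falls 5 kept their call with each of the 6 libraries left out, while Txnip and Pdcd2l lost it in 1 of the 6 settings and Bmf and Bcl3 in 4. On the first list Hes1 alone kept its call in each, and Tubb3 and Ifi203 lost it in 1, Pld4 in 2, Gm45399 in 3, Ly6d in 4 and Marcks in 5. Genes outside the naming rule in these lists were named after their values were seen. Among them Sdc1 (syndecan-1) was at 64.9, 84.2 and 60.1 CPM in sgCont and at 31.6, 27 and 32.6 CPM in sgMed12 (log2 fold change -1.16, SE 0.15, adjusted p = 9.5e-05).

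Cfp, which encodes the complement activator properdin, rose in all 3 sgMed12 libraries. It was at 4.48, 7.97 and 9.25 CPM in sgCont and at 22, 35.2 and 27.5 CPM in sgMed12 (log2 fold change 1.85, SE 0.24, adjusted p = 6.87e-05). The call held with each library left out and with replicates 1 and 3 both left out (2.18, adjusted p = 0.000177). In sgCTCF it was at 32.2, 39.3 and 32.8 CPM and in sgCbfb at 34.6, 34.3 and 21.9 CPM, with direct differences of -0.31 (adjusted p = 0.376) and -0.09 (adjusted p = 0.843), so it was not told apart from the other deletions. Rgs1, a regulator of G-protein signalling, rose from 3.96, 2.95 and 3.17 CPM to 17.8, 13.1 and 8.52 CPM (1.65, SE 0.33, adjusted p = 0.00497), and with replicates 1 and 3 left out it had a log2 fold change of 1.70 and an adjusted p of 0.0691. Tsc22d2 rose from 50.9, 38.7 and 51.9 CPM to 162, 88.3 and 127 CPM (1.37, SE 0.17, adjusted p = 5.96e-05), and with replicates 1 and 3 left out it was under the fold threshold (0.90, adjusted p = 0.00865).

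Immediate early genes were uneven. Of 34 such genes and MAPK feedback genes tested, Fos and Fosb rose, beside 0.668% of all genes tested, none fell and the median was 0.14. Fos, an AP-1 subunit, was at 3.96, 3.54 and 3.65 CPM in sgCont and at 27.7, 26.4 and 6.24 CPM in sgMed12 (log2 fold change 1.92, SE 0.50, adjusted p = 0.023). Replicates 1 and 2 were high and replicate 3 lay just above the controls, a split unlike that of RNA composition. The adjusted p was 0.0605, 0.0754 and 0.0657 without sgCont replicates 1, 2 and 3 and 0.108 without sgMed12 replicate 1. The log2 fold changes of Fos there were 1.96, 1.90, 1.91 and 1.58. Fosb was at 2.64, 7.09 and 2.68 CPM in sgCont and at 21.8, 11.6 and 6.81 CPM in sgMed12 (1.46, SE 0.45, adjusted p = 0.0482), so its groups overlapped. Its adjusted p was 0.159 and 0.16 without sgCont replicates 1 and 3, 0.0561 without sgCbfb replicate 2, 0.0599 without sgCTCF replicate 2, 0.246 without sgMed12 replicate 1 and 0.0589 without sgMed12 replicate 3, with log2 fold changes of Fosb from 1.06 to 1.83. In sgCTCF the spread of Fos was as wide, at 50.4, 12.5 and 6.24 CPM.

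Interferon-stimulated genes, chemokines and cell-surface genes gave few rises. Of 36 interferon-stimulated genes tested, Bst2 and Rtp4 rose, beside 0.668% of all genes tested, none fell, and the median was 0.36. Above 0 were 29 of the 36. By the adjusted p alone 3 passed as higher, beside 2.53% of all genes, and none as lower. The list's summed level, Bst2 included, was 350, 371 and 317 CPM in sgCont and 682, 449 and 616 CPM in sgMed12, a difference that was not tested. Bst2, the antiviral membrane protein tetherin and also a surface marker of plasmacytoid dendritic cells, was at 103, 107 and 91.1 CPM in sgCont and at 413, 125 and 323 CPM in sgMed12 (log2 fold change 1.34, SE 0.31, adjusted p = 0.013). It followed the split of RNA composition, and its log2 fold change was 0.99 without sgMed12 replicate 1 (adjusted p = 0.0688), 1.17 without sgMed12 replicate 3 (0.0923), 1.27 without sgCont replicate 3 (0.053) and 0.31 with replicates 1 and 3 both left out (0.783). Rtp4 was at 4.75, 4.43 and 1.7 CPM in sgCont and at 6.78, 16 and 7.38 CPM in sgMed12 (1.24, SE 0.33, adjusted p = 0.0247), highest in replicate 2. Its call was lost without sgCont replicate 3 (0.89, adjusted p = 0.13), sgMed12 replicate 2 (0.88) and sgMed12 replicate 3 (1.39, adjusted p = 0.057). The chemokine Ccl9 was at 5.01, 2.66 and 2.44 CPM in sgCont and at 7.35, 17.1 and 12.8 CPM in sgMed12 (1.60, SE 0.38, adjusted p = 0.0158), with adjusted p of 0.0694 and 0.0664 without sgCont replicates 2 and 3 and 0.0789 without sgMed12 replicate 3, at log2 fold changes from 1.45 to 1.54. Mctp1, at 2.9, 2.07 and 1.22 CPM in sgCont and 11.9, 9.3 and 9.65 CPM in sgMed12 (1.91, SE 0.33, adjusted p = 0.00176), was higher than in sgCTCF (1.51, adjusted p = 0.00237) and not told apart from sgCbfb (0.04, adjusted p = 0.953). Without sgMed12 replicate 1 the mean of Mctp1 fell under 10 CPM (1.81, adjusted p = 0.0079).

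**Figure D5:**
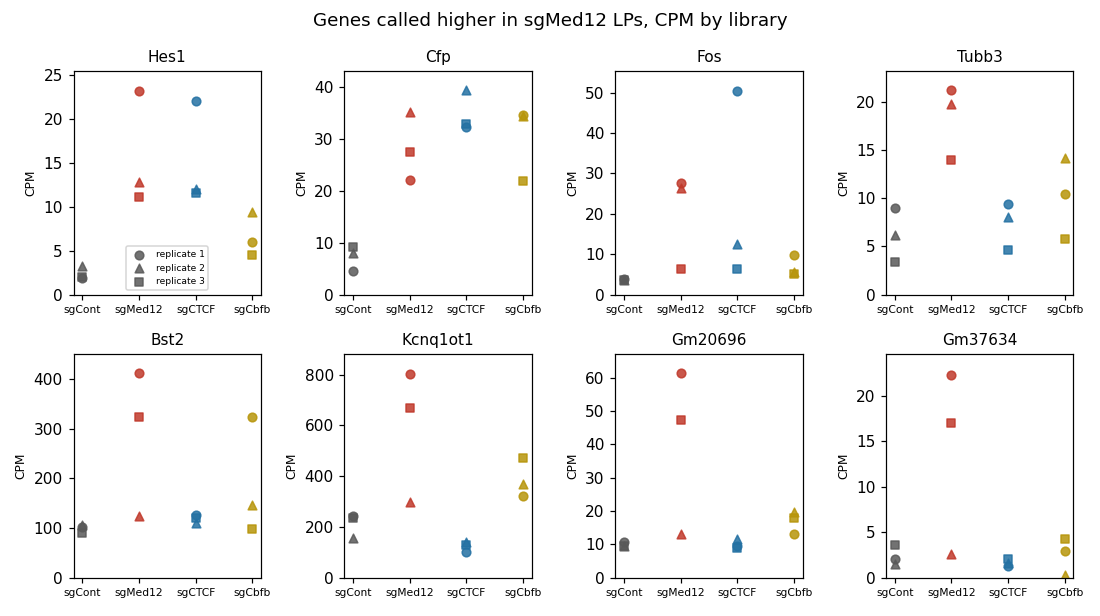
CPM (linear axes from 0) of 8 genes called higher in sgMed12, in each library of the 4 groups, with the replicate number as the marker shape; Gm37634 was chosen after its values were seen. For Hes1, Cfp and Tubb3 all 3 sgMed12 libraries lie above the sgCont libraries, while for Bst2, Kcnq1ot1, Gm20696 and Gm37634 replicate 2 lies near the sgCont libraries and replicates 1 and 3 lie above them.

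Several protein-coding rises followed the split between libraries. Gm20696 was at 10.8, 9.45 and 9.5 CPM in sgCont and at 61.3, 13.1 and 47.4 CPM in sgMed12 (log2 fold change 1.68, SE 0.34, adjusted p = 0.00567), and 0.37 with replicates 1 and 3 both left out (adjusted p = 0.759); without sgMed12 replicate 3 alone it was 1.44 (adjusted p = 0.0589). Clk1, a kinase of splicing factors, was at 100, 116 and 98.6 CPM in sgCont and at 305, 135 and 223 CPM in sgMed12 (1.0, SE 0.18, adjusted p = 0.00188), and missed the fold threshold without sgMed12 replicate 1 (0.73). With replicates 1 and 3 both left out Clk1 was at 0.37 (adjusted p = 0.315). Srcap, a chromatin remodeller, was at 7.65, 3.84 and 8.28 CPM in sgCont and at 24.3, 12.5 and 26.7 CPM in sgMed12 (1.54, SE 0.30, adjusted p = 0.00434), and 0.89 with both left out (adjusted p = 0.427). Bax, a pro-apoptotic p53 target, was at 48.5, 29.2 and 44.3 CPM in sgCont and at 111, 53.5 and 94.8 CPM in sgMed12 (1.03, SE 0.21, adjusted p = 0.00639). It was the only call among 21 p53 targets (median 0.29), beside 0.668% of all genes tested called higher. Its call was lost without sgCont replicate 2 (0.82, adjusted p = 0.0521), sgMed12 replicate 1 (0.82) or sgMed12 replicate 3 (0.94, adjusted p = 0.0553), and with both left out Bax was at 0.42 (adjusted p = 0.551). P2ry10, a receptor for lysophospholipids, rose from 64.9, 85.9 and 57.7 CPM to 146, 123 and 152 CPM in all 3 libraries (1.02, SE 0.15, adjusted p = 0.000252), close to the fold threshold, and missed it without sgCont replicate 1 (0.98) or 3 (0.90) or sgMed12 replicate 1 (0.99) or 3 (0.96). In these genes the mitochondrial and TEC shares moved with the values of Gm20696, Clk1, Srcap and Bax, and the part of RNA composition in them was not tested.

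Transcript models of the TEC biotype held as many rises as protein-coding genes. Of 667 tested, 36 rose (5.4%) and 1 fell, and their median log2 fold change was 0.69. Of 11050 protein-coding genes 36 rose (0.326%) and 47 fell (0.425%), with a median of -0.06. The TEC rises had median log2 ratios to the sgCont mean of 1.77, 0.37 and 1.54 in sgMed12 replicates 1, 2 and 3. Replicate 2 lay nearest to the controls in 34 of 36 and beyond every control in 20 of 36. For protein-coding rises the medians were 1.45, 0.92 and 1.17, and replicate 2 lay nearest to the controls in 19 of 36 and beyond every control in 35 of 36. Nearest to the controls in replicate 2 were 74.8% of all TEC genes and 47.6% of all protein-coding genes tested with a log2 fold change above 0. TEC rises numbered 2 without sgMed12 replicate 1, 3 without replicate 3, 101 without replicate 2 and 0 with replicates 1 and 3 both left out. They numbered 5 and 18 without sgCont replicates 2 and 3.

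These models lie mostly within other genes. Of the 36, 33 (91.7%) lay inside a protein-coding gene on the same strand, in 28 different host genes, beside 533 of the 667 tested (79.9%). None of the 28 host genes was called. The hosts' median log2 fold change was 0.06, with each host counted for every TEC gene it holds. The 375 hosts of all TEC genes tested held 1 call, higher, and had a median of -0.01, counted in the same way. The TEC gene with the largest rise, Gm37488, was at 1.85, 0.59 and 1.22 CPM in sgCont and at 15.5, 7.84 and 8.23 CPM in sgMed12 (log2 fold change 2.36, SE 0.37, adjusted p = 0.000513), higher in all 3 libraries, although without sgMed12 replicate 1 its mean fell under 10 CPM (2.07, adjusted p = 0.00419). Gm38082 was at 22.9, 11.2 and 21.2 CPM in sgCont and at 81.1, 26.7 and 69.8 CPM in sgMed12 (1.54, SE 0.31, adjusted p = 0.00488), and its call was lost without sgMed12 replicate 3 (1.35, adjusted p = 0.0522). The TEC genes Gm49502 (1.75) and Gm38055 (1.52) lost their calls without sgCont replicate 2 (adjusted p = 0.0754 and 0.0761), sgMed12 replicate 1 (0.06 and 0.0906) or sgMed12 replicate 3 (0.057 and 0.116).

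Among long non-coding RNAs outside that biotype Kcnq1ot1, Lncpint and AA386476 rose. Kcnq1ot1, the antisense transcript of the imprinted Kcnq1 domain, was at 243, 155 and 234 CPM in sgCont and at 804, 300 and 668 CPM in sgMed12 (log2 fold change 1.39, SE 0.23, adjusted p = 0.00102). It kept its call with each library left out, and with replicates 1 and 3 both left out its log2 fold change was 0.54 (adjusted p = 0.264). Against sgCTCF, where it was at 103, 140 and 131 CPM, the direct difference was 2.13 (adjusted p = 4.12e-07). Against sgCbfb, where it was at 322, 369 and 471 CPM, it was 0.51 (adjusted p = 0.137). Lncpint (1.55, adjusted p 0.0777, 0.0688 and 0.0922 without sgCont replicate 1, sgMed12 replicate 1 and sgMed12 replicate 3) and AA386476 (1.5, adjusted p 0.0642, 0.0881 and 0.062 without sgCont replicate 3, sgMed12 replicate 1 and sgMed12 replicate 3) rose less firmly. Of 264 lincRNA genes tested 3 rose (1.14%) and none fell, with a median of 0.26, and of 259 antisense genes 3 rose (1.16%) and none fell, with a median of 0.22, beside 0.668% of all genes tested called higher.

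Several mitochondrially encoded mRNAs were higher, most of all in replicates 1 and 3. Of 8 listed genes tested, 4 passed the test as higher without being called, beside 2.53% of all genes. Called lower was 1 gene, beside 0.364% of all genes tested. The median was 0.45, which was 0.03 with replicates 1 and 3 left out and 0.45 to 0.55 under the other scalings that keep these genes. These genes encode membrane subunits of the respiratory chain. The complex I gene mt-Nd4, named after its values were seen, lay at 3421, 2861 and 3256 CPM in sgCont and at 7507, 3831 and 5657 CPM in sgMed12 (log2 fold change 0.78, adjusted p = 0.00462). The mt-Nd6 gene, the only protein gene on the other mitochondrial strand, fell from 78.1, 112 and 67.7 CPM to 50.9, 32 and 34.9 CPM (-1.11, SE 0.18, adjusted p = 0.00116), and missed the fold threshold without sgCont replicate 2 (-0.90).

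No gene of the mitosis, DNA replication, G1 or ribosomal protein lists was called. Of 22 mitosis genes 10 passed the test, all lower, beside 4.7% of all genes, and the median log2 fold change was -0.41, with 21 of 22 below 0. It lay between -0.26 and -0.45 with sgMed12 libraries left out and was -0.30 with CT010467.1 and mitochondrial genes dropped from the totals. Top2a, the topoisomerase of dividing cells, was at 2732, 2710 and 2716 CPM in sgCont and at 1853, 1932 and 2119 CPM in sgMed12 (-0.47, SE 0.10, adjusted p = 0.00898). Of 25 DNA replication genes 5 passed as lower, with a median of -0.22, and of 16 G1 cyclin, CDK and CDK inhibitor genes 2 passed as lower, with a median of -0.31, both beside 4.7% of all genes. With replicates 1 and 3 left out these medians were -0.07 and -0.10. The summed G1 level was 3333, 2862 and 3354 CPM in sgCont and 2436, 3120 and 2687 CPM in sgMed12, so replicate 2 lay among the controls. The replication gene Mcm7 (log2 fold change -0.42, adjusted p = 0.0427) and the G1 kinase Cdk6 (-0.34, adjusted p = 0.103) were at -0.06 and 0.0 with replicates 1 and 3 left out. The lower values of these 2 lists thus sat in the libraries with shifted RNA composition, and its part in them was not tested. Of 82 cytosolic ribosomal protein genes 27 passed as lower, beside 4.7% of all genes, and none as higher, with a median of -0.27, which was -0.10 with replicates 1 and 3 left out and -0.16 with CT010467.1 and mitochondrial genes dropped from the totals. Of 32 sterol and fatty acid synthesis genes 7 passed as lower, beside 4.7% of all genes, none was called, and the median was -0.26. Hmgcs1, an early enzyme of the sterol pathway named after its values were seen, was at 295, 279 and 221 CPM in sgCont and 136, 152 and 131 CPM in sgMed12 (-0.91, SE 0.11, adjusted p = 5.96e-05).

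The remaining lists held few or no calls, and their counts by the test alone stand beside 4.7% of all genes lower and 2.53% higher. Their calls stand beside 0.364% of all genes tested called lower and 0.668% called higher. Of 23 stem and progenitor regulators none was called, 2 passed as higher and 6 as lower, with a median of 0.17. Of 16 RUNX, CTCF, cohesin and coactivator genes none was called and 2 passed as lower (median -0.23). None was called of 19 myeloid genes (1 higher by the test alone, median 0.16), of 5 erythroid and megakaryocyte genes (median 0.02), of 8 stromal genes (median 0.69) or of 14 MHC class I presentation genes (1 lower, median -0.06). Of 14 dendritic cell genes Bst2 rose, 3 passed as lower and the median was 0.01. Irf8, a transcription factor of dendritic cells and progenitors named after its values were seen, was at 73.3, 101 and 68.4 CPM in sgCont and at 34.5, 44.2 and 47.7 CPM in sgMed12 (log2 fold change -0.92, SE 0.20, adjusted p = 0.0094), below the fold threshold. None was called of 13 Wnt and TGF-beta targets (1 higher and 1 lower by the test alone, median 0.16), of 5 metal response genes (1 lower, median -0.27), of 16 necroptosis and inflammatory signalling genes (1 lower, median 0.04) or of 18 adhesion, homing and chemokine receptor genes (1 higher and 3 lower, median -0.24). Of 12 housekeeping genes Pgk1 fell, 3 passed as lower and the median was -0.21. At an unadjusted p under 0.05 limma counted 3081 genes in all.

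The direct contrasts set the called genes beside the other deletions. The same 3 sgMed12 libraries enter every contrast, and genes chosen for their values there tend to differ in the same direction from any other group, so these counts are no separate support. Called against all 3 other groups were 9 falls, Ddit4, Dntt, Dlk1, Txnip, H1f0, Ndrg1, Slc44a1, Prune1 and Tcp11l2, and 15 rises. Of these 5 falls and none of the rises kept their call against sgCont with each of the 6 libraries left out. Prune1, whose groups overlapped, and Tcp11l2 lost it in 4 of the 6 settings, and with sgMed12 replicates 1 and 3 both left out they went from log2 fold changes of -1.17 and -0.97 to -0.18 and -0.54. The genes outside the naming rule among them were named after their values were seen. H1f0 lay at 134, 134 and 136 CPM in sgCTCF and at 120, 177 and 149 CPM in sgCbfb, above its sgMed12 level, with direct differences of -1.69 (adjusted p = 3.83e-07) and -1.81 (adjusted p = 5.18e-08). In number, more genes separated sgMed12 from either other deletion, 529 and 590, than from the control, 136 in all; whether these counts differ beyond the spread between libraries was not tested.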

How the data were processed

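The deposited table of the second experiment holds CPM values, named TPM, which the authors made from QuantSeq 3′ reads trimmed with fastp, mapped to mm10 with STAR and scaled to a shared total per library. The study names the FWD version of the library kit, and the counting tool, annotation and strand option are not given in the sources used here. The unit was read as CPM because 100.0% of low values lie within 0.1 read of a multiple of 1 smallest step, which gives back whole reads per library. The table lists 55487 genes, of which 55227 are in GENCODE M21, and a last line without a gene ID was left out.

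The 13177 genes that reached 1 CPM in 3 or more of 12 libraries were tested on log2(CPM + 1) by limma 3.58.1 (R 4.3.3), with moderated variances, a trend and 4 group means in 1 fit. Benjamini-Hochberg adjustment ran over all genes tested. Calls needed an adjusted p below 0.05, a log2 ratio of group means beyond 1 and a mean above 10 CPM in either group. Recovered reads gave 116 rises and 45 falls with edgeR 4.0.16 and 118 and 45 with DESeq2 1.42.0. Python 3.11.15 with pandas 2.3.3, numpy 2.4.6, scipy 1.17.1 and matplotlib 3.10.9 made tables and figures.

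Named genes are the targeted genes, genes the study discusses for LPs, the called genes with the largest changes, and from each gene list up to 4 called genes or else its most abundant member. The members and lists were chosen with earlier results of these data known. Alternatives covered the pseudocount, filter, scaling, groups in the fit, moderation, thresholds, tool, a replicate block and each library left out. Leaving out sgMed12 replicates 1 and 3 together, taking mitochondrial genes and CT010467.1 from the totals, and using protein-coding genes only were chosen after seeing the data.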

Additional observations from a re-analysis of the deposited data

How the results depend on the processing

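No named gene that was called changed sign. Of the 136 called genes, the TEC genes C130089K02Rik (log2 fold change 1.27) and 5430420F09Rik (1.38) went to -0.34 and -0.17 with sgMed12 replicates 1 and 3 left out. Named genes that were not called changed sign under 23 gene and setting pairs. With replicates 1 and 3 left out Med12 went to -0.53, Zap70 to -0.15, Tcf7 to -0.69, Med13l to -0.10, Fcer1g to -0.03, Pdgfrb to -0.02, Nfkbia to -0.18 and Rplp1 to 0.02. Without sgMed12 replicate 1 Zap70 went to -0.02, Tcf7 to -0.17, Fcer1g to -0.03, Hbb-bt to 0.05 and Nfkbia to -0.10, and without sgMed12 replicate 3 Tcf7 went to -0.01. Without sgCont replicate 3 Lck went to -0.06, Zap70 to -0.11 and Nfkbia to -0.03, and without sgCont replicate 1 Tcf7 went to -0.04. With CT010467.1 and mitochondrial genes dropped Ctcf went to 0.01 and Rplp1 to 0.07, and Rplp1 went to 0.07 with protein-coding genes only and to 0.01 with median-of-ratios scaling and with DESeq2. At the other end of single libraries left out lay Lck at 0.14 and Zap70 at 0.20 (sgCont replicate 2), Fcer1g at 0.11 (sgCont replicate 1), Tcf7 at 0.50 and Nfkbia at 0.14 (sgMed12 replicate 2) and Hbb-bt at -0.25 (sgMed12 replicate 3). No value of these uncalled genes passed the test.

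The 48 falls became 30 with no filter on low values, 30 with only the 2 groups compared in the fit, 15 without moderation, 30 at a mean over 20 CPM and 601 with no fold threshold. Across single libraries left out they ranged from 31 (sgCont replicate 2) to 115 (sgMed12 replicate 2). The 88 rises became 24, 27, 6, 38 and 221 under the same 5 alternatives, 158 with CT010467.1 and mitochondrial genes dropped from the totals, 55 with protein-coding genes only, where 36 of the 88 can appear, and 10 with sgMed12 replicates 1 and 3 left out, and ranged from 22 (sgMed12 replicate 3) to 243 (sgMed12 replicate 2). The 36 TEC rises became 5, 5, 1 and 18 under the first 4 alternatives, 55 with DESeq2, 66 with the same genes dropped and 0 with replicates 1 and 3 out, and ranged from 2 (sgMed12 replicate 1) to 101 (sgMed12 replicate 2).

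The 7 glycolysis and hypoxia falls became 3 without moderation and 15 with no fold threshold. The 529 differences from sgCTCF became 312 at a mean over 20 CPM and 2105 with no fold threshold, and the 590 from sgCbfb became 387 and 1794. Of 46 named genes called, 11 kept the call without moderation, 28 at a mean over 20 CPM and 20 with replicates 1 and 3 out, from 27 (sgMed12 replicate 3) to 46 with single libraries left out. Under all alternatives other than changes of filter, level or fold threshold 8 kept it: Ankrd37, Dntt, Dlk1, Ddit4, Pim2, Aldh1b1, Cfp and Hes1. Of these Ankrd37, Dlk1 and Hes1 have no group mean over 20 CPM in sgCont or sgMed12 and lose the call at that level. Where the construction of an alternative does not show why a value moved, the cause was not tested.

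With replicate number as a block there were 100 rises and 48 falls. Deviations from group means correlated at 0.09, 0.05 and 0.03 between sgCont and sgMed12 libraries of the same number and at -0.09 to 0.04 between others. With 3 libraries a group these values cannot tell whether libraries of the same number share a batch. Chi-square per degree of freedom between sgMed12 libraries was 17.6 (replicates 1 and 2), 4.49 (1 and 3) and 9.43 (2 and 3), and 2.75 to 4.5 between sgCont libraries. These limits rest on 3 libraries a group from LP lines of unstated number, on bulk RNA and on 3′ reads that do not measure editing.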

Other observations

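In the HoxA cluster of homeodomain genes, looked at after the values were seen, Hoxa2, Hoxa6 and the antisense transcript Hoxaas3 rose, beside 0.668% of all genes tested. Hoxa2 was at 4.48, 2.95 and 4.38 CPM in sgCont and at 13.8, 6.68 and 10.5 CPM in sgMed12 (log2 fold change 1.16, SE 0.30, adjusted p = 0.0233, limma). Hoxa6 was at 5.8, 10.9 and 6.82 CPM in sgCont and at 17.8, 13.7 and 21.9 CPM in sgMed12 (1.1, SE 0.25, adjusted p = 0.0117). Hoxaas3 was at 1.58, 6.2 and 3.9 CPM in sgCont and at 13, 11 and 15.9 CPM in sgMed12 (1.66, SE 0.34, adjusted p = 0.00651). All 3 were higher in each sgMed12 library than in any control, as were 66 of the 88 genes that rose, a measure that calling favours. Hoxa5 (0.70, adjusted p = 0.00184) and Hoxa3 (0.63, adjusted p = 0.0272) passed the test below the fold threshold, and Hoxa4 (0.85, adjusted p = 0.0639), Hoxa7 (0.18, adjusted p = 0.295), Hoxa10 (0.33, adjusted p = 0.0671), Hoxa9 (0.17, adjusted p = 0.397), Hoxa11 (0.71, adjusted p = 0.228) and Hoxa11os (0.45, adjusted p = 0.542) did not. Exons of Hoxaas3 overlap those of Hoxa7, at 138 to 189 CPM, on the opposite strand over 586 bases, and how the study's counts treated strand is not given.

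Calls in the cluster were lost with single libraries left out. Without sgMed12 replicate 3 the log2 fold change was 1.13 for Hoxa2 (adjusted p = 0.0943), 0.95 for Hoxa6 (0.0856) and 1.53 for Hoxaas3 (0.0518). Hoxa2 was at 0.94 (0.144) without sgMed12 replicate 1, 1.01 (0.101) without sgCont replicate 2 and 1.23 (0.0516) without sgCont replicate 3, and Hoxa6 at 0.94 (0.0594) without sgCont replicate 1. With sgMed12 replicates 1 and 3 both left out the values were 0.65 (0.627) for Hoxa2, 0.77 (0.425) for Hoxa6 and 1.42 (0.244) for Hoxaas3.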
